A study of Mus musculus with 8 samples.

Results

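Complement is a cascade of plasma and tissue proteins that tags cells and debris for removal and draws in leukocytes, and it is best known as a product of the liver, although macrophages, fibroblasts and neutrophils also transcribe parts of it. C1q, assembled from chains encoded by C1qa, C1qb and C1qc, opens the classical pathway when it binds antibody on a surface. The central protein C3 is then cleaved by enzymes built from C4b or Cfb, Serping1 encodes the C1 inhibitor that restrains the first step, and the fragments C3a and C5a are sensed by receptors encoded by C3ar1 and C5ar1. These 9 genes were chosen by name, as listed here, out of the 17921 genes counted in single cells of transplanted mouse lungs. In the deposited table each is one gene row, and their messages were followed over the authors' cell types, their clusters of lung structural cells and both kinds of graft.

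Left lungs were transplanted into male C57BL/6 (B6) mice without immunosuppression and collected after 1 month. In the B6→B6 group (5 mice) donor and recipient were both C57BL/6, and in the HLA→B6 group (3 mice) the donor was an HLA mouse, a C57BL/6 line with the human transgene Tg(HLA-A2.1)1Enge, so that the graft carried a foreign histocompatibility protein. The labels call the second group a model of bronchiolitis obliterans syndrome (BOS), the airway scarring of chronic rejection. Dissociated cells of each graft went into one 3′ single-cell library, for which 10000 cells were loaded, so the mouse was the replicate. The dissociated graft holds donor cells and recipient leukocytes, which the files do not separate, and the transgenic donor and the rejecting recipient response cannot be told apart as sources of a difference.

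The table held 20778 cells, 868 to 6544 per mouse, with 1669076 to 12445769 unique molecular identifiers (UMIs, the count of distinct messages) per mouse and a median of 1356 to 1948 UMIs per cell. Levels are given as CPM, the UMIs of a gene scaled to a total of 1000000 UMIs over a mouse's cells in one population, for populations with at least 10 cells in that mouse. B6→B6 mice 1, 2 and 3 and HLA→B6 mouse 2 shared more cell barcodes than the other 4 libraries did. All cells are kept in the values below unless stated, and results that rest on these libraries are also given without the 793 cells whose barcode was repeated and that were not clearly its deepest holder. HLA→B6 mouse 2 also stood apart in the cells labelled alveolar macrophage (AM), where 9 defining markers such as Chil3 and Marco summed to 895 CPM, compared with 10768 to 13227 CPM in the B6→B6 mice and at most 5061 CPM in the other HLA→B6 mice.

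All 9 genes lie on the minus strand in GRCm38 (GENCODE vM21 models). The C1q genes sit side by side on chromosome 4, at chr4:136895917-136898803 for C1qa, chr4:136889804-136893065 for C1qc and chr4:136880129-136886187 for C1qb, within 18675 bases. C4b (chr17:34728380-34743882) and Cfb (chr17:34856374-34862518) lie 112491 bases apart in the histocompatibility region, and C3 lies further along the same chromosome at chr17:57203970-57228136. Serping1 is at chr2:84765387-84775444, C3ar1 at chr6:122847138-122856161 and C5ar1 at chr7:16246743-16259540. Because the kit reads 3′ ends, runs of 90 bases in the last 500 bases of each gene were compared with all other genes. For C4b 20.2% of them also occurred in its near copy C4a, and for Cfb 52.6% also occurred in the overlapping model Gm20547. Neither of these partners has a row in the table, so the values of C4b and Cfb may hold or lack reads of a partner, and the other 7 genes shared none.

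RefSeq promoter sequences (GRCm38.p6) were matched for 5 of the 9 genes. Those of C1qb, C1qc and C3 are shown because the first 2 belong to genes read almost only in AM-labelled cells and the third to a gene read in several populations. They are printed 5′ to 3′ on the minus strand and end at the RefSeq start, except for C1qc, which is cut where the GENCODE model of the gene begins. Capitals mark GAGGAA, the core of the site of the myeloid factor PU.1, on either strand in the C1q genes. In C3 they mark TTGCNNAA, a pattern like the C/EBP site that is not itself a palindrome. The stretches cover chr4:136886201-136886450, chr4:136893066-136893164 and chr17:57228137-57228386.
C1qb: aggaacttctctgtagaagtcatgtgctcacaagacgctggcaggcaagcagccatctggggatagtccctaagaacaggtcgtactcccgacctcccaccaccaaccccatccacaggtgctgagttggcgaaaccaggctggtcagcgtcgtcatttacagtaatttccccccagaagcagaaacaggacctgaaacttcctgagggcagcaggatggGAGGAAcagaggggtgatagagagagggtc
C1qc: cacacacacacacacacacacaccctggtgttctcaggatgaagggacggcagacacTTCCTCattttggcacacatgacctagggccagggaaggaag
C3: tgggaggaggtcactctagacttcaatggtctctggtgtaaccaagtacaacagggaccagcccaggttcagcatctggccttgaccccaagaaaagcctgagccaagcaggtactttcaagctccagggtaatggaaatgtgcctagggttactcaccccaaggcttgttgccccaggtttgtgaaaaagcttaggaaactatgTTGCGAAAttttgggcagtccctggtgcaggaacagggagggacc
The PU.1 core began 30 bases before the RefSeq start of C1qb and 193 bases before that of C1qc, and it was not found in the windows of C3, C3ar1 or C5ar1. It occurred in 23.3% of all 32851 promoter windows of 250 bases, the C/EBP-like pattern in 9.56%, and a match describes the letters only. TGCTGA, part of the site of Maf factors, was present in C1qb, C3, C3ar1 and C5ar1 and in 16.1% of all windows. Neither an interferon-stimulated element (GAAA, any 2 bases and GAAA again, 2.98% of windows) nor a STAT palindrome (TTCNNNGAA, 7.02%) occurred in any of the 5. Both strands were searched, and no match in 1 window overlapped another.

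**Figure D1:**
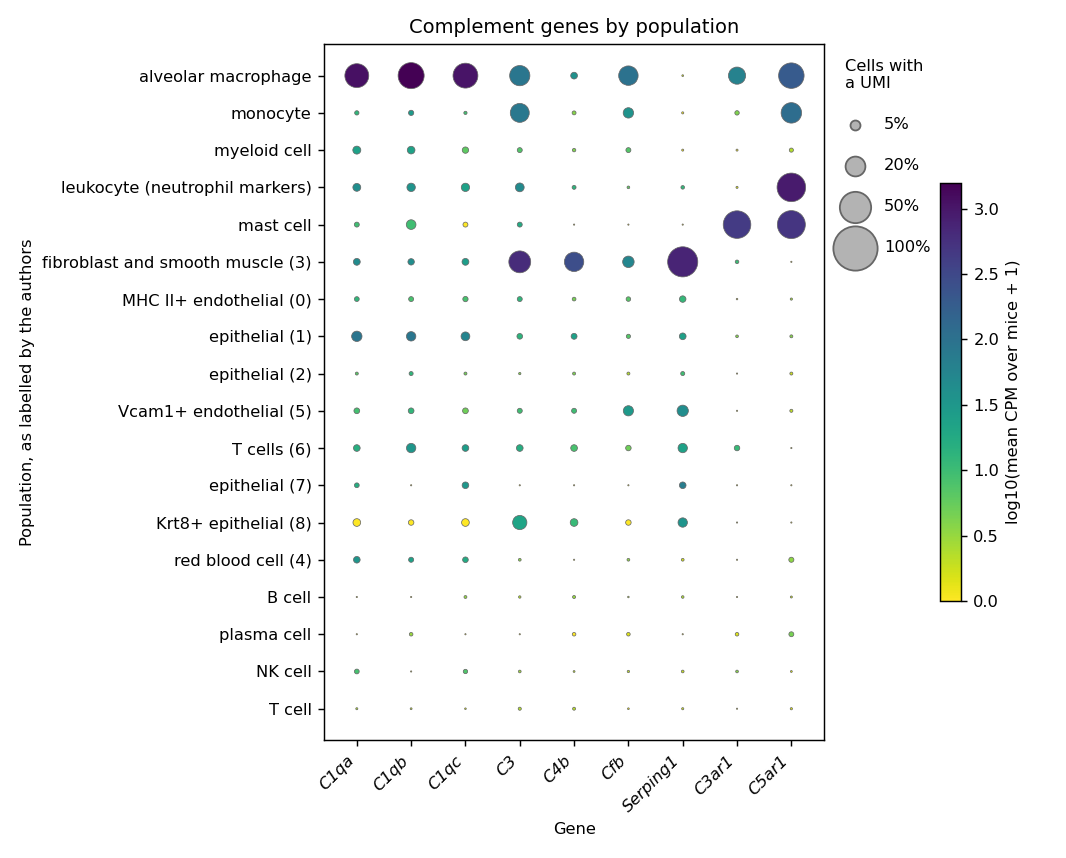
Each dot is one gene (columns) in one population (rows; populations with at least 10 cells in at least 2 mice). Colour gives log10 of the mean CPM over mice plus 1, and dot size the percent of cells with at least 1 UMI. The C1q genes and Cfb are highest in AM-labelled cells, and C3, C4b and Serping1 in structural cluster 3 (fibroblasts and smooth muscle). C3ar1 is highest in cells labelled mast cells and C5ar1 in cells labelled leukocytes.

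The 9 genes divided by source. C1qa, C1qb and C1qc were read almost only in AM-labelled cells, which gave 96.9%, 97.2% and 97.2% of their UMIs in the whole table. Cfb, the protease of the alternative pathway, and C3ar1 also came mainly from AM-labelled cells, with 84.3% and 89.8% of UMIs, although HLA→B6 mouse 2 gave 1541 of the 2018 UMIs of Cfb, and without that mouse the share was 52.4% for Cfb and 77.7% for C3ar1. Serping1 was the opposite case, with 94.3% of UMIs in structural cells and 76.2% in the cluster of fibroblasts and smooth muscle alone. C3 was spread over AM-labelled cells (49.8%), structural cells (25.99%) and monocytes (19.1%), and the order turned without HLA→B6 mouse 2, to 20.4%, 43.0% and 29.0%. C4b was divided between structural cells (56.2%) and AM-labelled cells (34.1%), and C5ar1 between AM-labelled cells (48.9%), leukocytes (28.9%) and monocytes (19.1%).

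Per unit of RNA the order changed. Averaged over mice, C1qb reached 1560 ± 1233 CPM (SD, n = 8) in AM-labelled cells, with 85.1 CPM in the next population, structural cluster 1. The value for C1qa was 1156 ± 916 CPM and for C1qc 1054 ± 837 CPM in AM-labelled cells, and the SDs near the means reflect mice that differed widely. Serping1 was at 750.3 ± 382 CPM (n = 6) in the fibroblast and smooth muscle cluster, and no other population averaged more than 71.1 CPM. In that cluster C3 was at 627 ± 471 CPM, above the 86.0 CPM of AM-labelled cells and the 82.2 CPM of monocytes, which did not differ beyond their spread. C4b was at 277 ± 276 CPM there and at 38.5 CPM in AM-labelled cells, with overlapping mice. For Cfb, AM-labelled cells (96.7 ± 125 CPM) and the fibroblast and smooth muscle cluster (52.0 ± 16.4 CPM) overlapped. The cluster's fibroblast markers summed to 6416 CPM over all its cells, and endothelial markers to 3179 CPM.

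Both receptors of complement fragments were highest outside the macrophages. C3ar1 was at 492, 485 and 307 CPM in the 3 mice with at least 10 cells labelled mast cells (B6→B6 mice 2 and 3 and HLA→B6 mouse 1). The average in AM-labelled cells was 58.4 CPM. All 3 values of mast-labelled cells were above every AM value, the highest of which was 132 CPM. The basophil genes Mcpt8 and Cd200r3 were at 2942 and 1086 CPM in mast-labelled cells, and Cpa3 and Fcer1a at 1340 and 1693 CPM. The label therefore does not separate mast cells from basophils. C5ar1 was at 917 ± 251 CPM (n = 7) in cells labelled leukocytes, whose neutrophil markers summed to 189383 CPM. It was at 504 CPM in mast-labelled cells, at 195 CPM in AM-labelled cells and at 115 CPM in monocytes. AM-labelled cells and monocytes overlapped in C5ar1. In AM-labelled cells 374 of 2494 cells held a C3ar1 UMI, 826 a C5ar1 UMI and 145 both. Among leukocytes the same counts were 2, 580 and 1 of 1390, so the C5a receptor was read there almost without the C3a receptor. Mast-labelled cells gave 33, 34 and 9 of 85. The population with the highest level of each of the 9 genes was the same under all 5 ways of computing the level, including TMM scaling and leaving out shared barcodes or doublets.

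T and NK cells, which should lack most of these messages, were used as a background. Whether free RNA had been removed from the counts is not known, so these cells show only what was left. T cells of B6→B6 mice 1, 2, 3 and 5 held no UMI of the hemoglobin message Hbb-bs. Structural cells of the B6→B6 mice held it at 32208 to 326677 CPM. A C1qb UMI was found in 34.6% of AM-labelled cells and in 0.0986% of T cells and 0 of 1011 NK cells, which allows a share of up to 0.297%. The median depth was 2792 UMIs per cell in AM-labelled cells, 1648 in T cells and 1484 in NK cells, and after thinning every cell to 1000 UMIs the AM share was 25.96%. C3ar1 was found in 38.8% of mast-labelled cells and 0 of 5071 T cells, which allows up to 0.0592%, and these limits cover counting error only. C5ar1 was found in 41.7% of leukocytes, despite their median of only 679 UMIs per cell, and Serping1 in 46.4% of cells of the fibroblast and smooth muscle cluster. C3 was found in 24.3% of the cells of that cluster, in 20.8% of AM-labelled cells and in 18.3% of monocytes. At 1000 UMIs the last 2 were 8.15% and 8.10%. The highest share of any of the 9 genes was 0.414% in T cells and 1.09% in NK cells.

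Genes with the most similar profile over 18 populations, as a description with points that share libraries and depth, were mostly of the same cells. C1qa was most like C1qc (Pearson r of log2(CPM + 1) 0.908), C1qb (0.867) and Ms4a7 (0.842), a tissue macrophage marker, and C1qc was also like Hebp1 (0.891). Serping1 was most like Inmt (0.947), Ctgf (0.946) and Npnt (0.942). C5ar1 was most like Nlrp3 (0.960), the inflammasome sensor, and Acod1 (0.949), the enzyme that makes itaconate. Cfb was most like Axl (0.894), a receptor for dying cells, C3 like Fn1 (0.873), the fibronectin gene, C4b like Olfml3 (0.862) and C3ar1 like Epb41l1 (0.884).

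The comparison of HLA→B6 with B6→B6 grafts asked whether the complement messages differed in the chronically rejecting lung. In the sum over all cells of a graft, 4 of 9 genes (C1qc, C3, Cfb and C3ar1) were higher in every HLA→B6 mouse than in every B6→B6 mouse, where 1% of all genes with at least 100 UMIs did so. C1qc was at 64.7, 172, 143, 29.96 and 5.53 CPM in B6→B6 mice 1 to 5 and at 283, 740 and 197 CPM in HLA→B6 mice 1 to 3. C3 was at 15.6, 30.2, 45.6, 19.5 and 12.9 CPM against 70.8, 113 and 46.0 CPM, so that the nearest mice of the groups were almost equal. Cfb ranged from 3.23 to 17.7 CPM in B6→B6 grafts and was at 18.2, 168 and 20.7 CPM in HLA→B6 grafts, where mouse 2 was far above the rest.

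None of the 9 genes passed edgeR's quasi-likelihood test in these whole-graft sums, nor did any other gene (0% of 11584 called at a Benjamini-Hochberg adjusted p under 0.05). Of the members 6 had an unadjusted p under 0.05, as did 815 genes in all, and DESeq2 called 2 members beside 0.876% of 14379 genes. The log2 differences were 1.75 (SE 0.38, adjusted p = 0.254) for C3, 2.18 (SE 0.55, adjusted p = 0.317) for C3ar1 and 2.85 (SE 0.74, adjusted p = 0.329) for Cfb by edgeR. C4b (-0.02), Serping1 (0.36) and C5ar1 (-0.32) were near 0, and the median over the 9 was 2.18 beside -0.01 over all genes tested. In such sums more cells of a type and more RNA per cell cannot be told apart.

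In AM-labelled cells 3 members passed the test. Here 8 of 9 genes could be tested, all but Serping1 (2 UMIs), and C3ar1, Cfb and C3 rose in HLA→B6 grafts, 3 of 8 beside 6.36% of the 5798 genes tested that rose. C3ar1 reached the level that the filter on low counts asks of 3 mice (20.6 CPM) in 2 of 5 B6→B6 mice and all 3 HLA→B6 mice, so it was tested only because of the HLA→B6 mice, whereas Cfb and C3 reached it in enough B6→B6 mice alone. C3ar1, the receptor for C3a, was at 13.2, 54.3, 59.0, 8.55 and 2.51 CPM in B6→B6 mice 1 to 5 and at 106, 132 and 92.3 CPM in HLA→B6 mice 1 to 3. The groups did not overlap, which held for 5% of genes in this direction. The log2 difference was 2.34 (SE 0.59, edgeR quasi-likelihood test with Benjamini-Hochberg adjustment, adjusted p = 0.0296). Without cells of a shared barcode it was 2.77 (edgeR adjusted p = 0.00735).

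Cfb was at 49.4, 66.8, 52.9, 15.7 and 12.6 CPM in B6→B6 mice and at 68.9, 395 and 112 CPM in HLA→B6 mice. The lowest HLA→B6 value was just above the highest B6→B6 value. The log2 difference was 2.69 (SE 0.63, edgeR adjusted p = 0.0222), and 1.44 (adjusted p = 0.156) without HLA→B6 mouse 2. With the replicate number as a block it was 1.72 (adjusted p = 0.0501).

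C3 was at 52.7, 89.8, 52.9, 34.2 and 20.1 CPM against 73.2, 262 and 104 CPM, and the groups overlapped. Its log2 difference was 1.88 (SE 0.48, edgeR adjusted p = 0.0306). It fell to 0.99 (adjusted p = 0.215) without HLA→B6 mouse 2, which carried 92.6% of its C3 in AM-labelled cells. The call also ended without any one of B6→B6 mice 1, 3, 4 or 5, with adjusted p between 0.0513 and 0.0848. C3ar1 likewise missed the threshold without B6→B6 mouse 1 (0.0692) or 4 (0.0696) or HLA→B6 mouse 2 (0.0909) and by DESeq2 (0.122), and Cfb without B6→B6 mouse 1 (0.0501) or 4 (0.0605). With shared barcodes left out, Cfb (2.84, adjusted p = 0.0123) and C3 (2.31, adjusted p = 0.00608) both passed.

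The C1q genes had large differences in AM-labelled cells that did not pass the test. C1qb was at 607, 1737, 1945, 162 and 30.2 CPM in B6→B6 mice 1 to 5 and at 3451, 2847 and 1701 CPM in HLA→B6 mice 1 to 3. The B6→B6 mice spanned 30.2 to 1945 CPM, and mice 2 and 3 reached the level of HLA→B6 mouse 3. C1qa was at 396, 1367, 1483, 139.9 and 27.6 CPM against 2696, 1823 and 1315 CPM, and C1qc at 356, 1025, 1351, 106 and 27.6 CPM against 2343, 1826 and 1399 CPM, without overlap. The log2 differences were 1.73 (SE 0.85), 1.80 (SE 0.87) and 1.92 (SE 0.83) for C1qa, C1qb and C1qc, with edgeR adjusted p of 0.204, 0.199 and 0.153.

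The linked libraries moved with this result. With membership in the linked set as a term the C1q differences were 3.41, 3.61 and 3.62 (edgeR adjusted p = 0.0150, 0.00994 and 0.00785). In the unlinked mice alone, chosen after seeing the data, they were 4.56, 4.74 and 4.79. That choice left out B6→B6 mice 1, 2 and 3, which had the highest C1q levels of their group. A larger difference followed from the choice, so it is no support for a call. Leaving out cells of a shared barcode gave 2.02, 2.17 and 2.27 (adjusted p = 0.140, 0.109 and 0.0883). In B6→B6 mouse 1 the C1qb level was then 236 CPM, in mouse 2 1314 CPM and in mouse 3 still 1858 CPM.

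C4b and C5ar1 went the other way without passing the test. C4b was at 16.5, 93.9, 140.4, 13.05 and 0 CPM in B6→B6 mice and at 29.8, 5.72 and 8.39 CPM in HLA→B6 mice (log2 difference -1.59, SE 0.99, edgeR adjusted p = 0.319). B6→B6 mice 2 and 3 stood above the rest. In the unlinked libraries alone the sign turned (1.37, adjusted p = 0.318). C5ar1 was at 211, 192, 360.04, 236 and 153 CPM against 203, 64.8 and 143 CPM (log2 difference -0.57, SE 0.34, edgeR adjusted p = 0.293). Over the 8 genes tested the median log2 difference was 1.84, beside -0.03 over all genes.

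**Figure D2:**
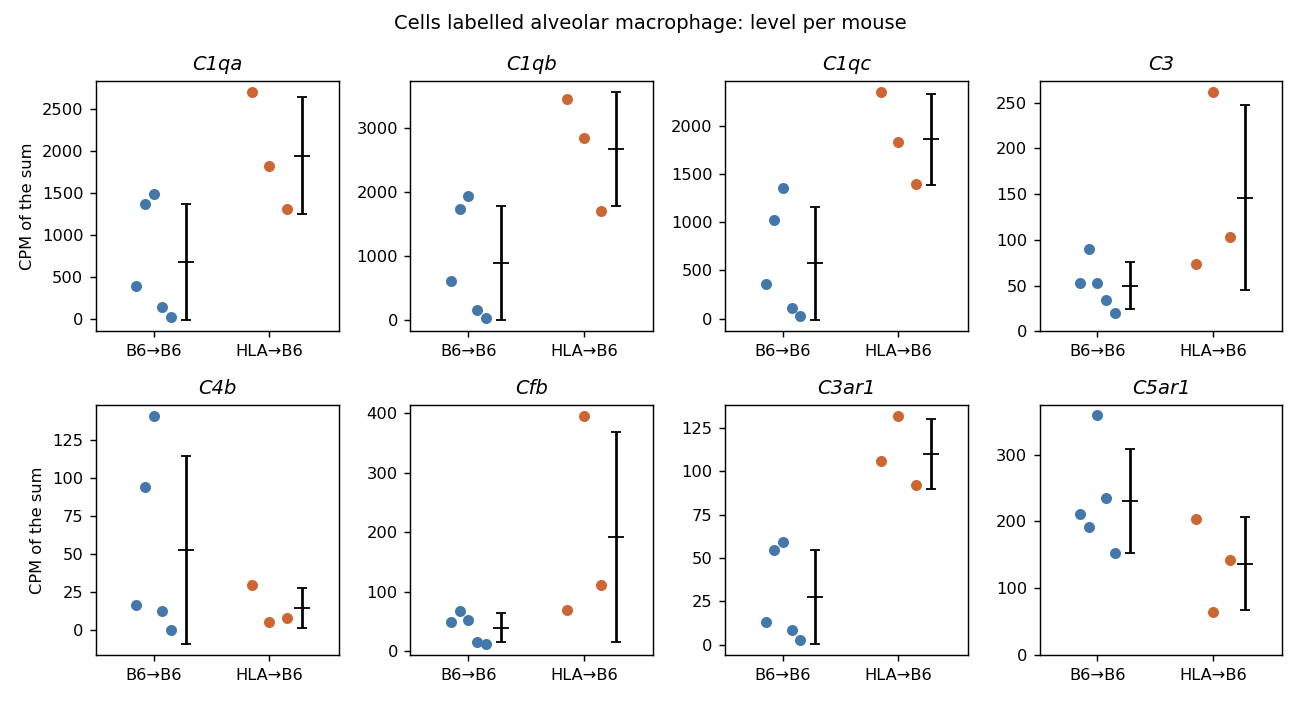
CPM (linear axis) of 8 genes in AM-labelled cells, one point per mouse (5 B6→B6, 3 HLA→B6), with the mean and SD as bar and error bar. C3ar1, Cfb and C1qc do not overlap between the groups, and HLA→B6 mouse 2 is the highest point for C3 and Cfb.

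The AM label covered unlike cells. A count of C1q genes per cell gave 1521 of 2494 cells with none of the 3, 190 with 1, 161 with 2 and 622 with all 3. The 783 cells with at least 2 are called C1q-positive here, and both classes were defined after the values had been seen, so they are described without a test. AM markers summed to 713 CPM in C1q-positive cells and 10918 CPM in cells with none, and 10 markers of other tissue macrophages (none of them a complement gene) summed to 2519 and 1029 CPM. Of these 10 only Mrc1 was lower in C1q-positive cells (75.8 CPM against 514 CPM). These values are pooled over mice, so they also hold the difference between groups. HLA→B6 mice gave 3882980 of the 4205853 UMIs of C1q-positive cells, and 968549 of 4516280 in cells with none. Of the 9 AM markers 6 (Siglecf, Chil3, Ear1, Ear2, Plet1 and Krt79) were lower in C1q-positive cells of each of the 7 mice compared, for example Ear1 at 0.476 CPM against 666 CPM over all mice. Marco was lower in 3 of 7 mice and higher in B6→B6 mice 2 to 4 (449.5, 575 and 303 CPM against 134, 79.4 and 204 CPM). Atp6v0d2 was lower in C1q-positive cells of 6 of 7 mice and Fabp4 in 5 of 7. Pooled over all mice, Fabp4 was nevertheless higher in them, at 155 CPM against 116 CPM.

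C1q-positive cells made up 23.3%, 35.2%, 18.4%, 1.61% and 1.90% of AM-labelled cells in B6→B6 mice 1 to 5 and 45.9%, 67.5% and 42.3% in HLA→B6 mice 1 to 3, without overlap. The means were 16.1 ± 14.4% (SD, n = 5) and 51.9 ± 13.6% (n = 3). In B6→B6 mouse 1, 32 of the 37 C1q-positive cells had a barcode that also occurred in another library, and in mouse 2 this held for 88 of 100. Of the latter, 70 shared it with HLA→B6 mouse 2, where all 70 partners were also C1q-positive and had a median of 21.8 times as many UMIs. Without cells of a shared barcode the B6→B6 values were 5.0%, 11.03%, 16.3%, 1.63% and 1.94%, and the HLA→B6 values 46.1%, 68.3% and 42.5%. With all cells kept and the depth thinned to 500 UMIs, the shares were 0.881% to 29.0% in B6→B6 mice and 32.0% to 42.8% in HLA→B6 mice.

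Within the C1q-positive cells the groups differed in C4b, the classical pathway component that follows C1q. C4b was at 178, 401, 508 and 549.9 CPM in B6→B6 mice 1 to 4, and at 38.6, 7.36 and 5.79 CPM in HLA→B6 mice 1 to 3. The B6→B6 values rest on few cells, 37, 100, 35 and 11 in mice 1 to 4. Mouse 5 had 2 such cells and was not summed. The gap was as wide without shared barcodes, with 709, 541 and 549.9 CPM in B6→B6 mice 2 to 4 against at most 39.0 CPM. These 3 values came from 15, 29 and 11 cells. With all cells kept, 4.86% of genes with at least 100 UMIs in this class were lower in every HLA→B6 mouse.

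Several other complement genes, named here after their values were seen, were also lower in every HLA→B6 mouse in these cells. They are examples and not a count over all complement genes, and 4.86% of genes with at least 100 UMIs were lower in this way. B6→B6 mouse 4 had only 11 such cells. Fcna, a ficolin of the lectin pathway, was at 249, 508, 1127 and 3319 CPM in B6→B6 and at 40.9, 4.90 and 11.6 CPM in HLA→B6 mice. Cfp, which encodes properdin, was at 284, 430.0, 847 and 645 CPM against 199, 90.7 and 75.3 CPM. Vsig4, a receptor for C3 fragments, was at 39.1 to 516 CPM in B6→B6 mice and at 0 in every HLA→B6 mouse. Itgam, a chain of complement receptor 3, was at 142 to 670.5 CPM against 114 to 127 CPM, and Itgax, the matching chain of receptor 4, went the other way (29.5 to 107 CPM against 185 to 270.03 CPM). C3ar1 (107 to 284 CPM against 147 to 168 CPM) and C3 (36.8 to 264 CPM against 71.3 to 260 CPM) overlapped. Without shared barcodes C3ar1 no longer did, at 211, 212 and 284 CPM in B6→B6 mice 2 to 4 and 153, 147 and 169 CPM in HLA→B6 mice, lower where the sum over all AM-labelled cells was higher. Pf4 (743 to 1393 CPM against 15.4 to 231 CPM), Cd163 (56.9 to 166 CPM against 0 CPM) and Folr2 (88.0 to 455 CPM against 4.20 to 34.7 CPM), markers of resident tissue macrophages, moved with C4b, and their part in it was not tested.

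In AM-labelled cells with no C1q UMI, C3ar1, Cfb and C3 did not overlap between groups and were higher in HLA→B6 grafts, where 5.01% of genes with at least 100 UMIs were. C3ar1 had 59 UMIs in these cells, below that minimum, and was at 0, 2.78, 2.83, 1.84 and 0 CPM in B6→B6 mice and at 21.9, 90.3 and 21.8 CPM in HLA→B6 mice. Cfb was at 44.2, 44.5, 48.2, 15.7 and 12.7 CPM against 87.5, 499 and 131 CPM, and C3 at 44.2, 39.0, 59.5, 31.3 and 20.3 CPM against 87.5, 260.1 and 102 CPM. C5ar1 overlapped, at 155 to 309 CPM against 43.0 to 225 CPM. So the differences of these 3 genes were also present in cells without a C1q UMI, although in HLA→B6 mouse 2 the AM marker Chil3 was low in them as well (877 CPM). In HLA→B6 grafts these cells were shallower than AM-labelled cells with a C1q UMI, with a median of 1950.5 against 5540 UMIs. A cell without a C1q UMI may therefore still hold the message.

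**Figure D3:**
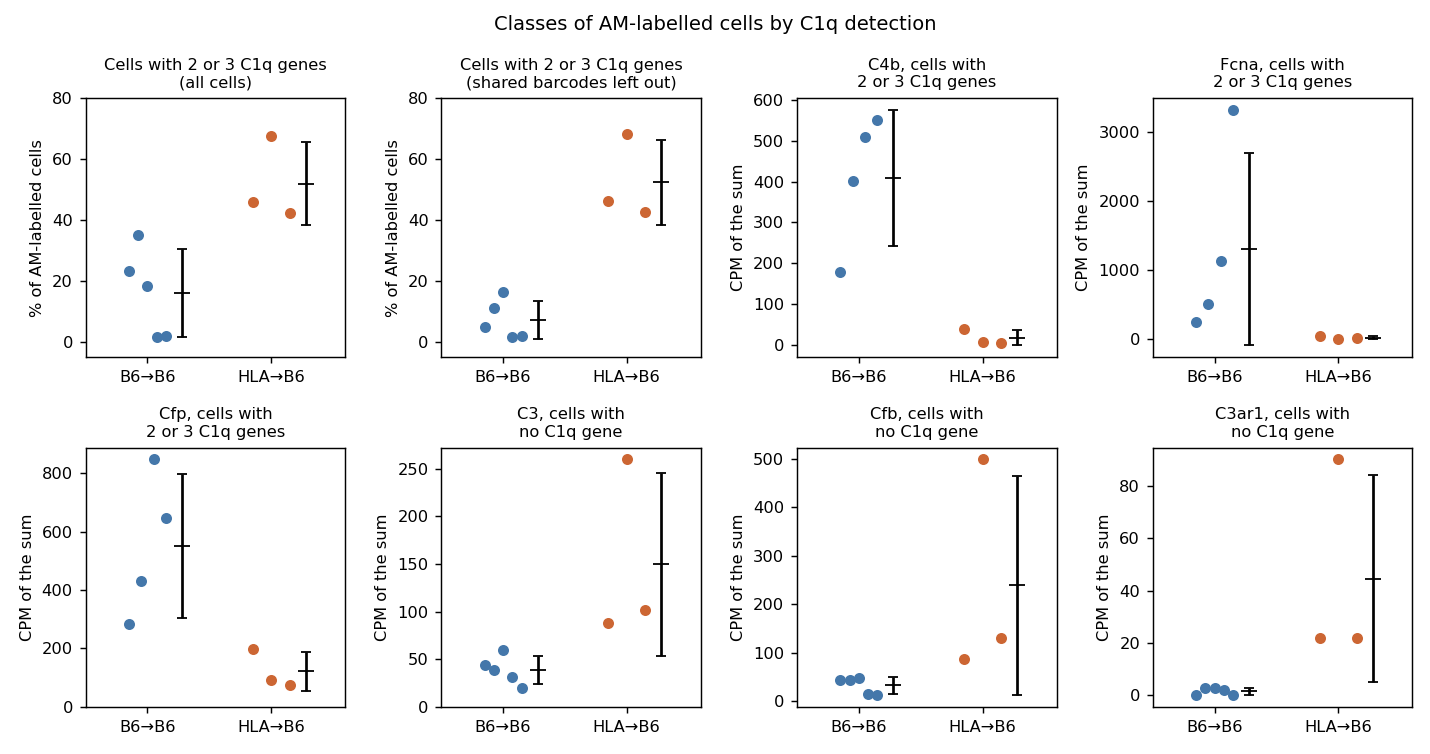
Panels give the percent of AM-labelled cells with 2 or 3 C1q genes, with and without cells of a shared barcode, the CPM of C4b, Fcna and Cfp in C1q-positive cells and the CPM of C3, Cfb and C3ar1 in cells without a C1q UMI. Points are mice of the B6→B6 and HLA→B6 groups with the mean and SD; C4b, Fcna and Cfp are higher in every B6→B6 mouse shown, and C3, Cfb and C3ar1 in every HLA→B6 mouse.

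Outside the macrophages, C1q messages were also present in HLA→B6 structural cells. C1qa was at 0 in all 5 B6→B6 mice and at 28.7, 112 and 33.1 CPM in HLA→B6 mice 1 to 3, with 210 UMIs against 0 in 2441 B6→B6 cells. Against a limit of 3 UMIs over the B6→B6 group, its pooled level was at least 63.6-fold higher. For C1qb, with 225 UMIs against 0, this was at least 68.2-fold. These limits cover counting error in pooled UMIs only. They hold neither the spread between mice nor any removal of free RNA before deposition. C1qc had 4 UMIs in B6→B6 mouse 4 and 172 in HLA→B6 grafts. EdgeR called all 3 genes (adjusted p = 0.0189, 0.0175 and 0.00428), where 0.419% of 8109 genes rose. All 3 passed the filter on low counts only through the HLA→B6 mice, with 0 of 5 B6→B6 mice at its level, so these calls add nothing to the levels.

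The calls ended in the unlinked libraries alone (adjusted p = 0.298, 0.288 and 0.288 for C1qa, C1qb and C1qc), and those of C1qa (0.0746) and C1qb (0.0670) also without B6→B6 mouse 4. In the structural cells Serping1 (0.09), C4b (0.53), C3 (0.99) and Cfb (1.07 on the log2 scale) did not pass, with edgeR adjusted p of at least 0.453. In a joint fit of AM-labelled and structural cells, in which 1.32% of 8656 genes passed, the difference between groups was called unlike for C1qb and C1qa, but with both at 0 in structural cells of every B6→B6 mouse the fit cannot size it and it is not read as a difference between types. In the other 5 pairs of types tested (AM-labelled, structural and myeloid cells and monocytes) 0 of 35 tests of a member passed, although 7 had an unadjusted p under 0.05. The shares of all genes that passed there were 0.107%, 0.0372%, 2.4%, 0.205% and 0%.

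Of the 607 C1q UMIs in HLA→B6 structural cells 338 were in structural cluster 1. The authors label it epithelial, but endothelial markers summed to 8382 CPM in it, compared with 388 CPM for type 2 pneumocytes, 902 CPM for club cells and 10558 CPM for endothelial markers in the MHC II+ endothelial cluster, so it is called cluster 1 here. C1qa was at 180.4, 417 and 120.2 CPM in the HLA→B6 mice and 0 in every B6→B6 mouse. Its pooled level was at least 64.2-fold higher by the same limit, which again covers counting error only. C1qa was the one member tested in that cluster and was called by edgeR (adjusted p = 0.00119, where 0.937% of 2348 genes rose). It too passed the filter only through the HLA→B6 mice. C1qb was at 249, 424 and 8.02 CPM and C1qc at 148, 250.3 and 40.1 CPM, and among the B6→B6 mice only mouse 4 had any, 5.85 CPM of C1qc. In HLA→B6 grafts 126 of 604 cells of cluster 1 (20.9%) held a C1q UMI, 40 of them of at least 2 of the genes, compared with 3 of 743 (0.404%) in B6→B6 grafts.

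C3 and C4b had only 22 and 28 UMIs in cluster 1. C4b was at 0 to 10.3 CPM in B6→B6 and at 10.8, 104 and 56.1 CPM in HLA→B6 mice there. In the MHC II+ endothelial cluster Serping1 was at 0 to 2.71 CPM against 23.1, 49.5 and 9.85 CPM and Cfb at 0 to 2.71 CPM against 10.2, 24.8 and 9.85 CPM. None of these had enough UMIs for a test.

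C1q messages were found in other cells of HLA→B6 grafts too. A C1q UMI was present in 47 of 380 myeloid cells (12.4%), 107 of 915 leukocytes (11.7%), 77 of 1696 cells of the MHC II+ endothelial cluster, 18 of 478 NK cells (3.77%), 13 of 2508 T cells (0.518%) and 5 of 1023 B cells (0.489%). In B6→B6 grafts the corresponding shares were 1.87% of myeloid cells, 0.842% of leukocytes, 0 of 668 cells of that endothelial cluster, 0 of 533 NK cells, 0.0390% of T cells and 0.238% of B cells. NK cells held C1qa at 19.5, 24.4 and 18.0 CPM and no C1qb in the HLA→B6 mice. T cells held at most 8.48 CPM of any C1q gene. Cells of cluster 1 were shallower than these lymphocytes, with a median of 698 UMIs among its HLA→B6 cells without a C1q UMI, 1427 in NK cells and 1732 in T cells. Its share was 18.9%, 30.5% and 12.7% in HLA→B6 mice 1 to 3, and it was not the highest in each mouse. In mouse 3 the share was 21.9% in myeloid cells (7 of 32), 24.0% in the cluster labelled epithelial (2) (6 of 25) and 17.2% in the fibroblast and smooth muscle cluster (5 of 29). In mouse 2 it was 44.4% in the red blood cell cluster (8 of 18). These shares rest on few cells. The cluster labelled epithelial (2) also held endothelial markers (Cldn5 6959 and Pecam1 1810 CPM) above the epithelial messages Sftpc (47.0 CPM) and Scgb1a1 (211 CPM).

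Other messages that are abundant in lung, of macrophages and of red blood cells, were also higher in cluster 1 of the HLA→B6 mice. Apoe was at 0 to 76.0 CPM in B6→B6 and 633 to 1307 CPM in HLA→B6 mice, and Lyz2 at 0 to 254 CPM and 689 to 2294 CPM. The hemoglobin message Hbb-bs was at 0 to 681 CPM and 747 to 6306 CPM, and Cd74, Fth1 and Ftl1 did not overlap either. The AM markers Chil3 (at most 42.4 CPM in B6→B6 and 8.02 CPM in HLA→B6 mice), Ear2 and Marco overlapped. The proportions of the chains were 36.5%, 38.3% and 25.1% of C1q UMIs for C1qa, C1qb and C1qc in cluster 1, compared with 29.7%, 42.4% and 27.9% in AM-labelled cells. The part of free RNA and of macrophage material attached to these cells was not tested.

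**Figure D4:**
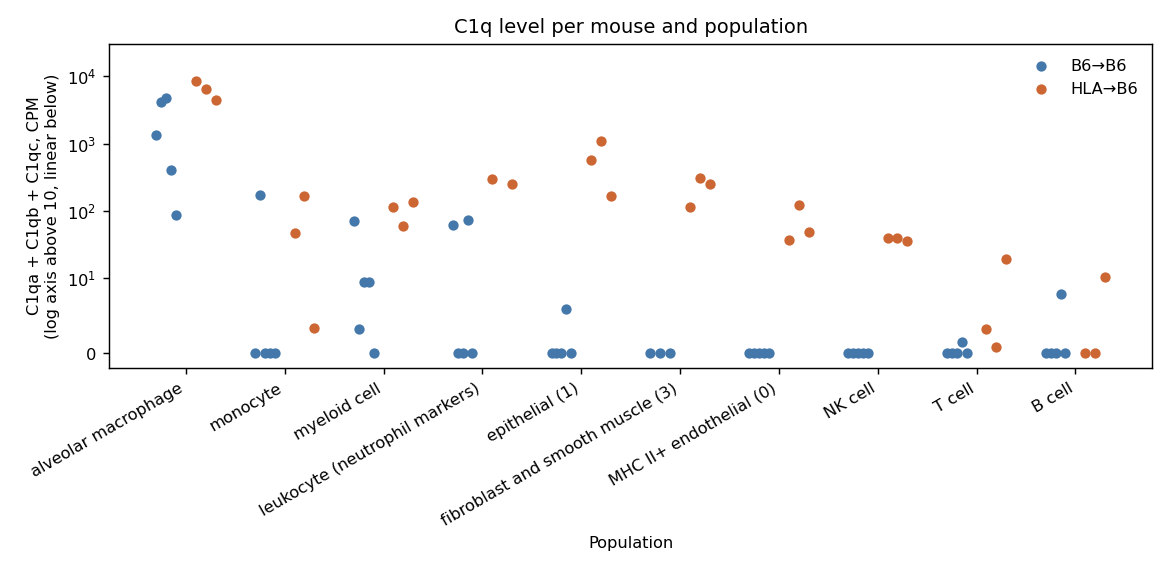
Summed CPM of C1qa, C1qb and C1qc per mouse (symmetric log axis, linear below 10) in 10 populations. AM-labelled cells are highest in both groups; structural cluster 1 is near 0 in B6→B6 mice and between 168 and 1092 CPM in HLA→B6 mice, above NK, T and B cells of the same mice.

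In the cluster with the highest levels of C3, C4b and Serping1 no member was called between groups. In this fibroblast and smooth muscle cluster, which had at least 10 cells in B6→B6 mice 1, 3 and 4 and in all HLA→B6 mice, C3 was at 164, 1069 and 265 CPM in B6→B6 and at 998, 170.3 and 1098 CPM in HLA→B6 mice. C4b was at 0, 724 and 82.2 CPM against 469, 102 and 282 CPM, and Serping1 at 984, 1192 and 657 CPM against 1035, 238 and 394 CPM. All 3 genes overlapped between the groups. By edgeR 0 of these 3 tested genes were called, beside 0.317% of 1260 genes, and 0 had an unadjusted p under 0.05. The log2 differences were 0.46 (SE 0.68, adjusted p = 0.893) for C3, -0.06 (SE 0.82, adjusted p of 1.00) for C4b and -0.67 (SE 0.50, adjusted p = 0.651) for Serping1. Fibroblast markers summed to 2679 to 13168 CPM in B6→B6 and 1022 to 3800 CPM in HLA→B6 mice, and their part in these values was not tested.

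In monocytes C3 was at 45.9, 75.0, 82.0, 70.7 and 93.5 CPM in B6→B6 and at 115, 90.5 and 84.5 CPM in HLA→B6 mice, among the steadiest values of any member. C3 (log2 difference 0.36, SE 0.23), Cfb (0.95, SE 0.70) and C5ar1 (0.39, SE 0.32) did not pass there (edgeR adjusted p = 0.999 each, beside 0.023% of 4352 genes called, and 0 of the 3 at an unadjusted p under 0.05). In leukocytes C5ar1 was at 1373, 835, 1052, 860.1 and 638 CPM in B6→B6 mice and at 673 and 990.5 CPM in HLA→B6 mice 1 and 2. The groups overlapped (log2 difference -0.21, SE 0.34, edgeR adjusted p of 1.00, beside 0% of 913 genes). In cells labelled myeloid C1qb had a log2 difference of 2.22 (SE 0.86, adjusted p = 0.817), beside 0% of 4395 genes called. No member had enough UMIs for a test in B, NK or T cells.

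**Figure D5:**
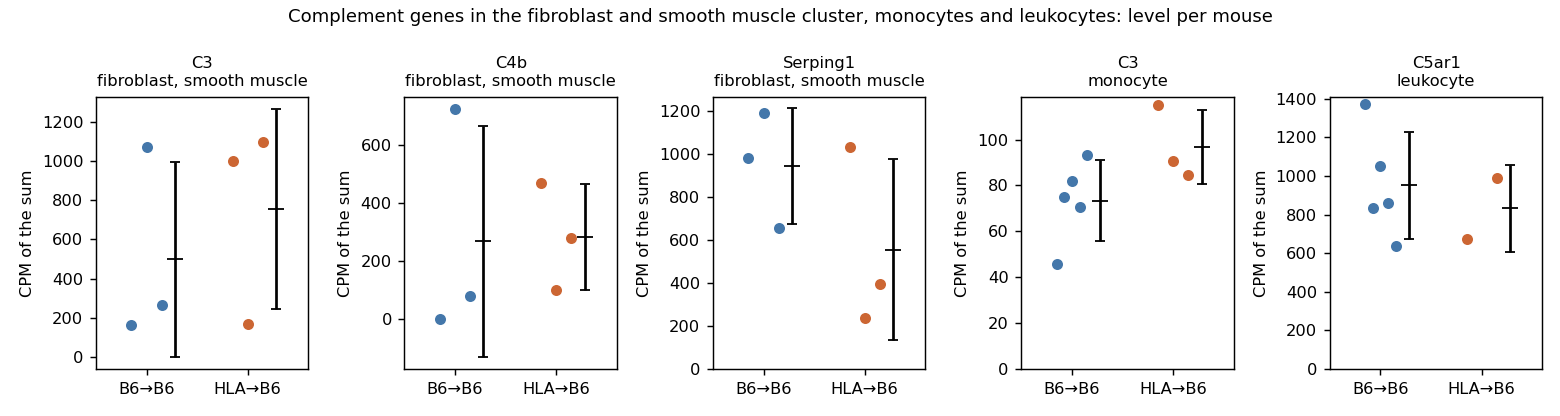
CPM per mouse (linear axis) with mean and SD of C3, C4b and Serping1 in the fibroblast and smooth muscle cluster, C3 in monocytes and C5ar1 in cells labelled leukocytes. The groups overlap in each panel; only mice with at least 10 cells of the population are shown.

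Of 47 other complement genes in a list of proteases, components, regulators and receptors, 37 were in the table. In AM-labelled cells 10 of them could be tested, and 1 rose and 9 did not pass, a share near the 6.36% of all genes that rose there. Itgb2, the common chain of complement receptors 3 and 4, was at 392, 426, 443, 450.3 and 442 CPM in B6→B6 and at 480.3, 662 and 618 CPM in HLA→B6 mice, without overlap. Its log2 difference was 0.68 (SE 0.16, edgeR adjusted p = 0.0228), and the call ended in the unlinked libraries alone (adjusted p = 0.260), with the replicate number as a block (0.0717) and without B6→B6 mouse 1 (0.0542) or 4 (0.0509) or HLA→B6 mouse 2 (0.109). In the other cell types 0 pathway genes were called by edgeR, out of 11 tested in structural cells and 9 in monocytes.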

How the data were processed

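Single-cell 3′ RNA libraries of 8 mouse lung grafts were measured. The deposited table holds UMI counts per gene and cell; per the labels and the methods, the authors made it with Cell Ranger on mm10 (GRCm38) and clustered the cells with Seurat, with minimums of 200 UMIs per barcode and 3 cells per gene. They removed free RNA with SoupX, using markers that include no complement gene; whether the deposited counts precede that step, and the versions of these tools, are not given in the sources used here. The deposited counts are whole numbers. Groups came from the treatment label, and cell types and structural clusters from the authors' deposited annotation.

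Counts were summed per mouse and population (at least 10 cells) and tested with edgeR 4.0.16 (quasi-likelihood, TMM, filterByExpr with a minimum count of 10, Benjamini-Hochberg over all genes, threshold 0.05) in R 4.3.3. DESeq2 1.42.0, no filter, a replicate block, the linked libraries as a term, shared barcodes, doublets (256 cells marked by Scrublet), shallow cells and single mice left out were alternatives. Levels and shares were computed in Python 3.11.15 (numpy 2.4.6, pandas 2.3.3), with shares thinned to 1000 UMIs per cell (structural clusters 500). In the alternative without shared barcodes, a repeated barcode was kept only in a cell with at least 5 times the UMIs of the other holders. Tests were checked on simulated data. The members, lists and tests were chosen with earlier results of these data known. The rule for named genes took the 9 members, pathway genes past the threshold and, for each member, the 3 genes with the most similar profile, of which the first are printed.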

Additional observations from a re-analysis of the deposited data

Results flagged for a closer look

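For C1qb and C1qa the fitted difference between HLA→B6 and B6→B6 grafts was called unlike in 2 cell types. In a joint edgeR fit of AM-labelled and structural cells with the mouse as a term, the effect in AM-labelled cells minus that in structural cells was -6.85 on the log2 scale for C1qb (SE 0.92, quasi-likelihood test with Benjamini-Hochberg adjustment, adjusted p = 0.0132) and -7.15 for C1qa (SE 1.27, adjusted p = 0.0318). Both genes were at 0 in the structural cells of all 5 B6→B6 mice, so they passed the filter there only through the HLA→B6 mice, and the size of these values depends on the prior count of the fit and is no bound. They are given as values and not as a difference shown between cell types. The difference was not called for C1qc (-3.04, adjusted p = 0.115) or C4b (-2.17, adjusted p = 0.104). The C1qb call ended without B6→B6 mouse 3 (adjusted p = 0.0539), and the C1qa call without B6→B6 mouse 3 (0.105), 4 (0.0701) or 5 (0.0528) or HLA→B6 mouse 2 (0.0921) or 3 (0.0510). None of 14 groups of values held a B6→B6 mouse far enough from the others to be singled out. That rule was applied to B6→B6 mice only, so it says nothing about single HLA→B6 mice.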

How the results depend on the processing

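Calls of members are given beside the percent of all genes tested that the same fits called. Within cell types 6 were called (1.95% of genes), all higher in HLA→B6, of which the 3 C1q calls in structural cells and C3ar1 in AM-labelled cells passed the filter only through the HLA→B6 mice. They were 12 with no filter on low counts (1.4%), 5 with DESeq2 (1.06%) and 1 to 6 when single mice were left out (0.486% to 2.17%). Within structural clusters 1 was called (1.22%), and 2 with DESeq2 (0.662%), 8 with no filter (0.425%), 3 with the linked libraries as a term (1.05%) and 1 to 3 without single mice (0.461% to 1.4%). Over all cells 0 were called, 2 with DESeq2 (0.876%), 4 with the linked libraries as a term (0.602%) and 0 without any single mouse. Pathway calls numbered 1, 4 with no filter (2 higher and 2 lower), and 0 to 2 without single mice. Effects called unlike between cell types numbered 2 (0.683%), 9 with no filter (1.36%) and 0 to 3 without single mice (0.163% to 0.631%). The one reversed value was C4b in AM-labelled cells in the unlinked libraries alone (1.37). The causes were not tested.

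Same-numbered samples of the 2 groups correlated at 0.300, 0.404 and -0.139 over all cells. HLA→B6 mice 1, 2 and 3 were most like B6→B6 mice 3, 2 and 5 (0.456, 0.404 and 0.304). The names of cells from HLA→B6 grafts carry other numbers than the sample labels used here. Whether mice of the 2 groups were paired is therefore not settled, and the block rests on the numbers of the sample labels. With the replicate number as a block, calls were 6 within cell types (1.34% of genes), 3 within structural clusters (1.46%), 0 over all cells (0.0553%) and 1, lower in HLA→B6, among pathway genes.

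With 3 HLA→B6 mice and cells of 1356 to 1948 UMIs at the median, low messages were limited by depth: Serping1 had 878 UMIs and C4b 628 in the whole table. Nothing here separates donor from recipient cells.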
